A study of Rattus norvegicus with 18 samples.

Results

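Pups exposed to oxycodone (oxy) before and after birth (in utero oxy, IUO) were compared with pups exposed only after birth (postnatal oxy, PNO), by RNA-seq of the prefrontal cortex (PFC) at postnatal day 14 (P14). The 12 pups, 6 per group, were taken by their sample titles from the 18 pups sequenced. The remaining 6 pups, whose dams received saline (SAL), are given as reference levels. They also entered the model, and so took part in its filter, scaling and estimate of spread. All pups were Sprague Dawley rats. IUO dams began oxy at 10 mg/kg/day, were brought to 15 mg/kg/day, then mated and dosed until weaning. PNO dams first received oxy, at 15 mg/kg/day, once their litter was born. Pups of both groups therefore took in oxy with the milk, and the contrast between them is prenatal exposure together with a longer dosing of the dam, which cannot be told apart. The sources used here do not say which pups shared a dam, and p-values measure the spread between these pups.

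Oxycodone is an agonist of the mu opioid receptor, a receptor that lowers neuronal excitability and transmitter release through inhibitory G proteins. It crosses the placenta and enters the milk. At the age sampled, the rat cortex is adding synapses, its oligodendrocytes are beginning to wrap axons with myelin, and its fast-spiking interneurons are starting to make the calcium-binding protein parvalbumin and to gather an extracellular matrix coat, the perineuronal net. Microglia, the resident macrophages of the brain, take on their mature surface genes over the same period.

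Summed expected counts lay between 18643283 and 26084780 per pup in IUO, between 18547404 and 25649851 in PNO and between 18381819 and 24518150 in SAL. Levels are CPM (counts scaled to a common library total) after TMM scaling, and errors are SDs over 6 pups. The cortical label was met by Slc17a7, the vesicular glutamate transporter of cortical excitatory neurons, at 1347 ± 282 CPM in IUO and 1506 ± 332 CPM in PNO. Markers of tissue outside the PFC were also present, unevenly. The summed level of 7 serotonergic raphe genes was 200.0 and 330.0 CPM in PNO replicates 4 and 6, and at most 35.1 CPM in the other PNO pups and in all IUO pups. Slc6a4, the serotonin transporter, was at 74.2 and 133 CPM in those 2 PNO pups and at most 5.30 CPM in the IUO pups. Genes that pattern the midbrain and hindbrain summed to 28.6 to 65.3 CPM in PNO replicates 4, 5 and 6 and to at most 9.81 CPM in IUO. Hypothalamic peptide genes stood out in PNO replicate 1, where Pmch was at 54.0 CPM, and in IUO replicates 3 and 6, where Avp was at 29.4 and 31.5 CPM. Thalamic markers summed to 194 CPM in IUO replicate 6 and 176 CPM in PNO replicate 6, and to at most 110 CPM in the other IUO and PNO pups. The summed level of 5 olfactory bulb genes separated the groups, at 44.0 to 67.4 CPM in IUO and 22.1 to 34.8 CPM in PNO, with 125 and 752 CPM in SAL replicates 1 and 6. Y-linked reads were found in 3 of 6 IUO pups and 4 of 6 PNO pups. The genes past the adjusted threshold and several lists are given below with and without the pups with midbrain or hypothalamic genes. Not every list is given so, and some list medians changed sign without these pups. The olfactory bulb level entered no fit. With Y-linked expression as a covariate, 6 genes passed at 1.5-fold and 9 at any fold after adjustment, in place of the 7 and 10 given next.

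Between IUO and PNO, 10 of 15703 genes tested passed an adjusted p of 0.05 by edgeR's quasi-likelihood test, 5 higher (0.0318%) and 5 lower in IUO (0.0318%, and 0.0637% in all). A change of 1.5-fold or more was met by 7 of the 10, of which 2 were higher and 5 lower (0.0446%). Before adjustment, 2400 genes had a p under 0.05 (15.3%), of which 964 were higher (6.14%) and 1436 lower in IUO (9.14%), and 600 of them passed 1.5-fold (3.82%). The side with more genes depended on the setting. With library totals only, 1208 genes were higher and 1048 lower at that p, with limma-voom 2684 and 2649, and with the myelin marker level as a covariate 775 and 621. That level itself differed between the groups. Its mean log2 CPM was 4.88 to 5.91 in IUO, 5.20 in PNO replicate 5 and 6.17 to 7.26 in the other PNO pups. As a covariate it therefore also takes out group difference, and such fits cannot tell exposure and myelin level apart. The IUO and PNO pups did not overlap in 260 genes (1.66%), 125 higher (0.796%) and 135 lower in IUO (0.86%). The median log2 fold change over all genes was -0.00053, and 49.9% of genes were on the higher and 50.1% on the lower side of 0. On the same counts DESeq2 passed 436 genes after adjustment (2.78%) and limma-voom 2028 (12.9%). That limma-voom fit weighted each pup by quality, from 0.27 for SAL replicate 6 and 0.31 for PNO replicate 1 to 4.02 for IUO replicate 4. With only the 12 IUO and PNO pups in the model, edgeR passed 72 of 15344 genes (0.469%), 50 of them at 1.5-fold or more. The number of genes passing after adjustment depended on single pups. It was between 1 and 95 when 1 of the 12 pups was left out, and 95 without PNO replicate 5. It was 2 without the 5 pups with midbrain genes (PNO replicates 4, 5 and 6, SAL replicates 2 and 4) and 0 without the 4 pups with hypothalamic genes (PNO replicate 1, IUO replicates 3 and 6, SAL replicate 1), where 2197 and 2199 genes had an unadjusted p under 0.05.

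**Figure D1:**
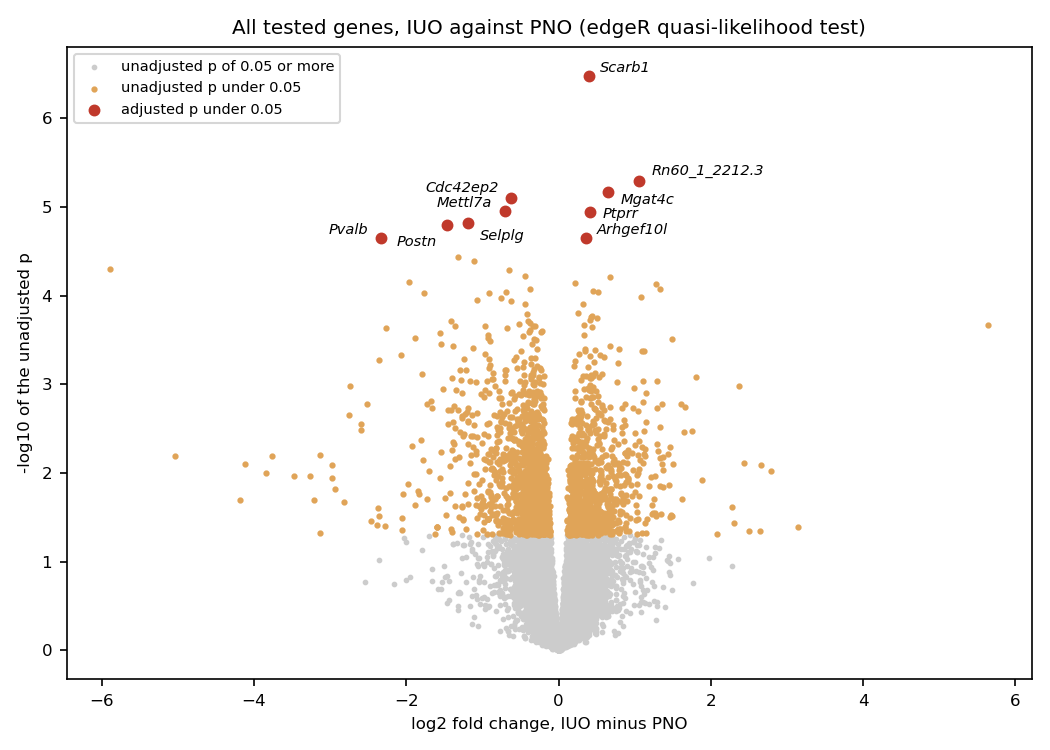
Log2 fold change (IUO minus PNO, horizontal) against -log10 of the unadjusted p (vertical) for the 15703 genes tested, with 1 point per gene. The 10 genes that passed an adjusted p of 0.05 are named and include both small changes with tight pups, such as Scarb1 at 0.41, and large ones, such as Pvalb at -2.34.

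Among the 5 genes that rose in IUO, Scarb1 had the smallest p. It encodes scavenger receptor class B type I, which takes up cholesterol ester from high-density lipoprotein. Scarb1 ran from 74.0 to 80.2 CPM in IUO with a median of 76.3, from 54.4 to 63.2 in PNO with a median of 57.8, and from 58.5 to 68.4 in SAL. Every IUO pup lay above every PNO and SAL pup. The log2 fold change was 0.41 ± 0.05 (SE, adjusted p = 0.0052), and Scarb1 was past 0.05 in 12 of 12 fits that left out 1 pup. The adjusted p was 0.094 without the pups with midbrain genes and 0.13 without those with hypothalamic genes, with log2 fold changes of 0.39 and 0.38. The adjusted p was 0.082 with the myelin covariate, under which 0 of the 10 genes passed.

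Mgat4c, which encodes a family member of the enzymes that add N-acetylglucosamine branches to N-glycans, ran from 9.06 to 12.4 CPM in IUO (median 10.7), from 6.39 to 7.45 in PNO (median 6.83) and from 7.21 to 10.3 in SAL. IUO and PNO pups were fully separated and SAL pups lay between and within them. Ptprr, a protein tyrosine phosphatase that acts on MAP kinases, ran from 29.1 to 36.2 CPM in IUO (median 31.7) and from 22.2 to 25.1 in PNO (median 24.2), again without overlap, and 22.9 to 28.8 in SAL. Its log2 fold change was 0.42 ± 0.07 (adjusted p = 0.030). Arhgef10l, a guanine nucleotide exchange factor for small GTPases, had a log2 fold change of 0.36 ± 0.06 (adjusted p = 0.036), and its groups met at one pup, with 62.1 CPM in the lowest IUO pup and 62.3 CPM in the highest PNO pup. The locus Rn60_1_2212.3, for which the files give no gene name, had the widest spread of the 5, from 7.58 to 18.0 CPM in IUO and from 5.48 to 7.69 in PNO. Of the 12 fits that left out 1 pup, Mgat4c passed 0.05 in 6, Ptprr in 5, Arhgef10l in 3 and Rn60_1_2212.3 in 6.

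Pvalb, the gene for parvalbumin, fell the most of the 10 genes. It ran from 2.60 to 5.93 CPM in IUO (median 4.71), from 10.4 to 33.5 in PNO (median 21.5) and from 3.42 to 24.6 in SAL (median 10.8). The highest IUO pup was below the lowest PNO pup, while the range of SAL pups overlapped both groups. PNO was 5.05-fold above IUO, with a log2 fold change of -2.34 ± 0.41 (adjusted p = 0.036). In this bulk tissue fewer cells of a type and less RNA per cell cannot be told apart. The change was -2.73 (adjusted p = 0.011) without the pups with midbrain genes and -2.30 (adjusted p = 0.19) without those with hypothalamic genes. With the myelin marker level, which itself differed between the groups, as a covariate it was -1.39 (adjusted p = 0.33). Left out singly, only PNO replicate 5 kept the adjusted p under 0.05, and the highest p without 1 pup was 0.10.

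Postn, which encodes the secreted matrix protein periostin, was held to a narrow range in IUO, 5.56 to 6.64 CPM, against 7.63 to 22.7 CPM in PNO and 8.53 to 20.2 CPM in SAL. No IUO pup reached the lowest pup of either other group, and the log2 fold change was -1.46 ± 0.25 (adjusted p = 0.032). Postn passed 0.05 in 4 of the 12 fits that left out 1 pup, with an adjusted p of up to 0.10. Selplg, whose product is the P-selectin ligand of leukocytes and which microglia express in brain, ran from 1.52 to 4.18 CPM in IUO and from 5.75 to 8.46 in PNO. Mettl7a, a lipid-droplet methyltransferase-like protein, ran from 10.8 to 14.2 CPM in IUO and from 17.0 to 22 in PNO. Cdc42ep2, an effector of the small GTPase Cdc42, ran from 10.5 to 14.0 CPM in IUO and from 16.7 to 20.7 in PNO. All 3 separated the groups completely, as 0.86% of all genes did on the lower side. The 10 genes were chosen for their small p, so nothing is read from such separation in any of them. The adjusted p of each of these 3 passed 0.05 in some leave-one-out fits and missed it in others (2, 5 and 5 of 12 passed, in that order). Apart from Scarb1 and Pvalb, the other 8 genes past the threshold kept their direction but lost the call without either set of pups with genes of other regions. Without the pups with midbrain genes their adjusted p ran from 0.094 (Selplg, Mettl7a and Ptprr) to 0.16 (Arhgef10l), and without those with hypothalamic genes from 0.057 (Postn and Rn60_1_2212.3) to 0.19 (Selplg).

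**Figure D2:**
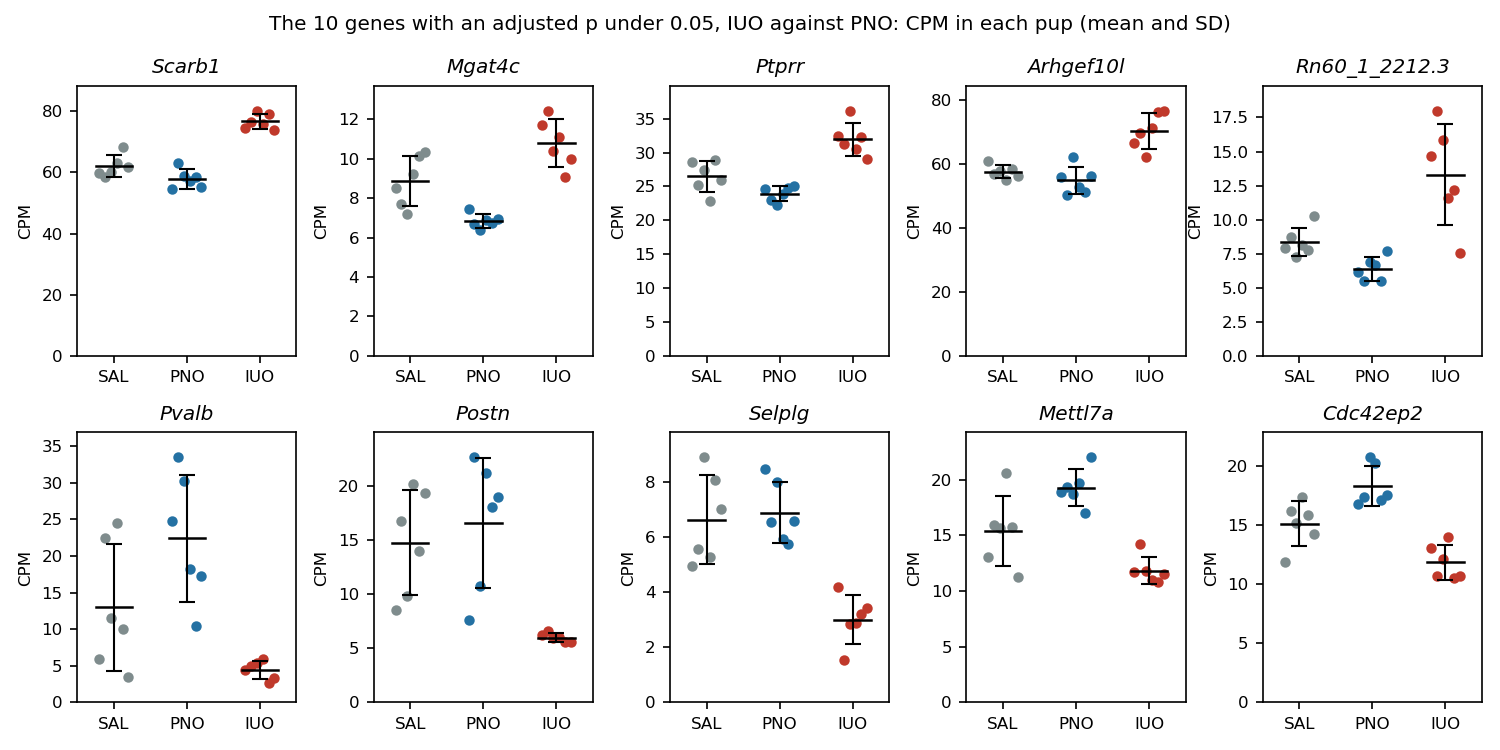
CPM (vertical) of the 10 genes with an adjusted p under 0.05, with 1 point per pup and the mean and SD of SAL, PNO and IUO. The upper row holds the 5 genes that rose in IUO and the lower row the 5 that fell, with Pvalb between 2.60 and 5.93 CPM in IUO and between 10.4 and 33.5 CPM in PNO.

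Genes that missed the adjusted threshold but had a fold of at least 1.5 and the smallest p-values are given by their levels. On the higher side in IUO, Sla, an adaptor that restrains antigen-receptor signalling, had a median of 51.2 CPM (41.8 to 89.6) in IUO and 24.0 CPM (18.8 to 30.8) in PNO, with an adjusted p of 0.057. Dtl, which directs the degradation of replication licensing factors, had medians of 5.92 and 2.57 CPM and no overlap (adjusted p = 0.057). Trpc7, a calcium-permeable channel, had medians of 7.35 and 3.50 CPM without overlap (adjusted p = 0.086). Vwa3a (48.5 and 31.1 CPM), Spata20 (4.11 and 2.73 CPM) and Baiap2l2 (2.87 and 1.63 CPM) were likewise separated, whereas Mybpc2 and Wbscr28 had overlapping pups. Their adjusted p-values lay between 0.057 and 0.095. Of all genes 0.796% were separated on the higher side, and the genes named here were chosen for their small p.

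On the lower side, 7 of 8 genes separated the groups, against 0.86% of all genes. The 8 were chosen for their small p, so nothing is read from that share. Ngb, the oxygen-binding neuronal protein neuroglobin, had a median of 9.20 CPM in IUO and 19.4 CPM in PNO (adjusted p = 0.054). Il33, an alarmin cytokine of astrocytes and oligodendrocytes, had medians of 11.6 and 17.6 CPM, with IUO pups between 10.7 and 12.3 CPM (adjusted p = 0.057). Hsd11b1, which regenerates active glucocorticoid inside cells, had medians of 22.8 and 41.1 CPM (adjusted p = 0.057). Nkd1, an inhibitor of Wnt signalling, had medians of 11.1 and 18.6 CPM, Lix1 47.9 and 86.0 CPM, and Bspry 4.81 and 10.8 CPM. The exception was Apod, a lipid carrier rich in oligodendrocytes, at 18.7 to 32.2 CPM in IUO and 25.1 to 129 CPM in PNO. The eighth gene, Tmem119, is described next.

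Microglial markers divided sharply. Of 17 tested, Selplg passed the adjusted threshold, and Tmem119, a surface protein of mature microglia, was next to it with an adjusted p of 0.052. Tmem119 ran from 2.90 to 6.00 CPM in IUO, from 10.4 to 14.1 in PNO and from 6.70 to 22.5 in SAL. IUO pups were below all pups of the other groups for Tmem119, and its log2 fold change was -1.32 ± 0.24, beside -1.19 ± 0.20 for Selplg. The remaining 15 markers had log2 fold changes between -0.20 and 0.08, none with an unadjusted p under 0.05. Cx3cr1, the fractalkine receptor, was at 10.5 ± 2.49 CPM in IUO and 9.85 ± 3.02 CPM in PNO. The list's median log2 fold change was -0.07, and its summed level ran from 323 to 397 CPM in IUO and from 331 to 419 CPM in PNO. Selplg and Tmem119 are neighbouring genes in RefSeq's annotation of the GRCr8 assembly, in which Selplg follows Coro1c and Tmem119 precedes Iscu.

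Neurofilament and axon initial segment genes serve conduction in fast axons. In the list of neurofilament and axon initial segment genes, 8 of 14 tested had an unadjusted p under 0.05 and were lower, against 9.14% of all genes, 0 were higher, and the median log2 fold change was -0.23. By edgeR 0 of 14 passed after adjustment, against 4 by DESeq2 (2.78% of all genes) and 6 by limma-voom (12.9%). Nefh, the heavy neurofilament subunit, ran from 44.7 to 73.4 CPM in IUO (median 56.1), from 69.1 to 143 in PNO (median 106) and from 54.8 to 148 in SAL (adjusted p = 0.076). Kcnc1, a potassium channel that allows rapid firing, ran from 21.3 to 31.0 CPM in IUO and from 32.9 to 49.3 in PNO without overlap (adjusted p = 0.11). Nefl, the light subunit, was at 712 ± 72.1 CPM in IUO and 917 ± 127 CPM in PNO (adjusted p = 0.13). The list's summed level was 1902 to 2340 CPM in IUO and 2363 to 2827 CPM in PNO, so that the groups were separated but close. Without the pups with midbrain genes 7 of 14 were lower at an unadjusted p under 0.05 (8.04% of all genes), and without those with hypothalamic genes 7 (8.18%). With the myelin marker level as a covariate 4 were (3.95%), and the log2 fold change of Nefh was -0.45 (adjusted p = 0.53) in place of -0.93. With the midbrain patterning genes as a covariate that of Kcnc1 was -0.40 in place of -0.61.

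The presynaptic and net lists had members on both sides of 0, none past the adjusted threshold by edgeR. Syt2, the fast calcium sensor of parvalbumin-cell terminals, ran from 3.94 to 7.05 CPM in IUO and from 6.75 to 19.1 in PNO (adjusted p = 0.13), and Vamp1, a vesicle fusion protein of fast synapses, from 73.4 to 117 and from 132 to 261 CPM without overlap (adjusted p = 0.18). The 30 presynaptic release genes as a whole had a median of -0.0038, with 1 higher and 3 lower at an unadjusted p under 0.05 (6.14% and 9.14% of all genes). Their first listed gene, Syn1, was at 528 ± 76.2 CPM in IUO and 587 ± 65.1 CPM in PNO. Hapln4, a link protein of perineuronal nets, ran from 7.41 to 12.9 CPM in IUO and from 14.3 to 30.5 in PNO (adjusted p = 0.14). Of the 12 net and lectican genes 8 were higher in IUO, and 4 of these had an unadjusted p under 0.05 (6.14% of all genes), against Hapln4 alone on the lower side (9.14%). The 4 included the matrix glycoprotein Tnc (medians of 74.2 and 48.8 CPM, no overlap) and the hyaluronan synthase Has3 (8.60 and 5.87 CPM). Acan, the main lectican of the nets, was at 4.93 ± 0.848 and 6.25 ± 1.33 CPM. With the myelin covariate the log2 fold change of Hapln4 was -0.32 in place of -1.29 and that of Vamp1 -0.28 in place of -0.89, and with the midbrain covariate that of Syt2 was -0.69 in place of -1.27. Of 18 GABA and glycine receptor genes, 3 had an unadjusted p under 0.05, a share near the 15.3% of all genes.

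**Figure D3:**
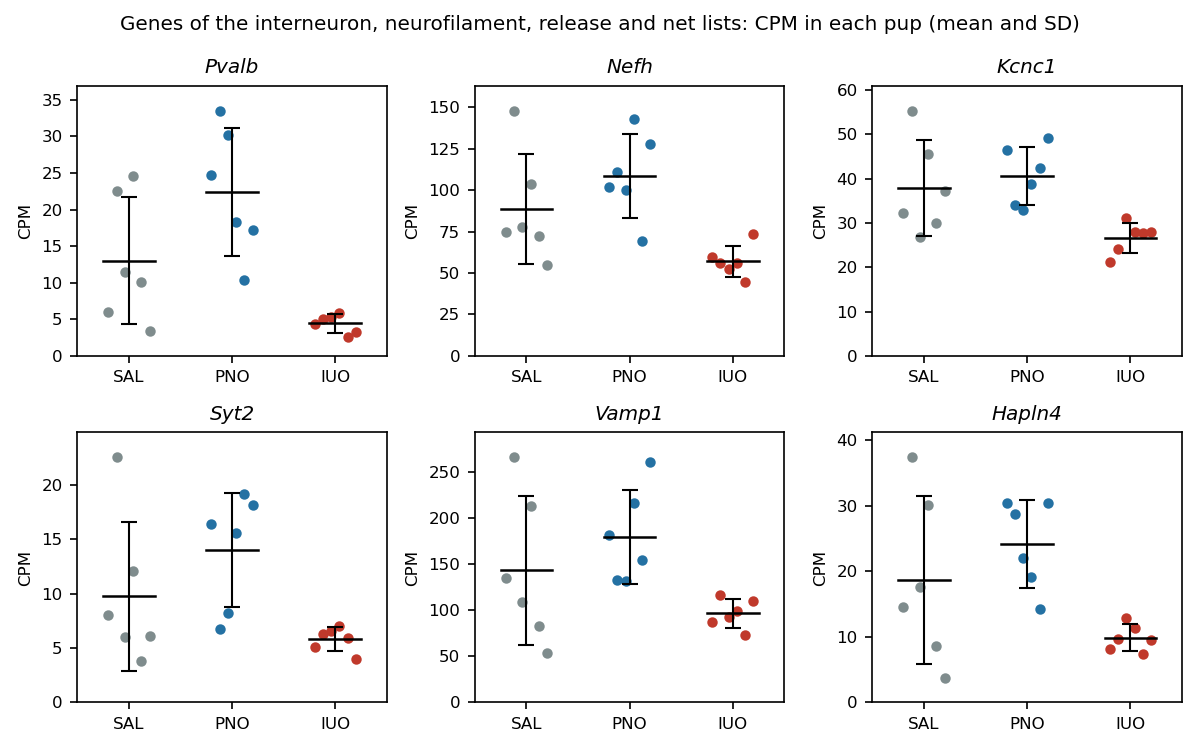
CPM (vertical) of Pvalb, Nefh, Kcnc1, Syt2, Vamp1 and Hapln4 with 1 point per pup and the mean and SD of SAL, PNO and IUO. Pvalb passed an adjusted p of 0.05 and the other 5 did not. IUO pups lie together near or below the lowest PNO pup in each panel, and SAL pups spread over both.

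Interneuron markers as a class lay on both sides of 0. Of 17 GABAergic interneuron markers, 10 were higher and 7 lower in IUO, with a median of 0.21, which was -0.065 with the striatal marker level as a covariate. Gad1, which makes GABA, was at 193 ± 42.2 CPM in IUO and 212 ± 38.1 CPM in PNO. The transcription factors Dlx2 and Dlx1, which specify GABAergic neurons and persist in immature ones, went the other way from Pvalb. Dlx2 ran from 5.47 to 7.13 CPM in IUO and from 1.35 to 4.29 in PNO, and Dlx1 from 51.1 to 69.5 and from 19.3 to 41.9, both without overlap (adjusted p = 0.18 and 0.21). SAL pups spanned 1.63 to 19.0 CPM for Dlx2 and 24.1 to 149 CPM for Dlx1, highest in replicates 6 and 1, the SAL pups with the highest olfactory bulb sums. The olfactory bulb sum separated IUO from PNO in the same direction. Its part in the Dlx1, Dlx2 and Meis2 levels, or in those of any other gene, was not tested. With the myelin covariate the log2 fold changes of Dlx2 and Dlx1 were 0.58 and 0.39, in place of 1.36 and 0.95.

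Myelin genes had a lower median than the other 39 of 40 gene lists. Of the 6 lists of other brain regions, raphe genes (-2.24, 6 tested) and midbrain and hindbrain patterning genes (-2.35, 7 tested) lay lower still. The raphe median was 0.034 without the 5 pups with midbrain genes. Of 22 markers of mature oligodendrocytes tested, 21 were lower in IUO and 19 of these had an unadjusted p under 0.05 (9.14% over all genes), and the median log2 fold change was -1.23. After adjustment 0 passed by edgeR, 15 by DESeq2 (2.78% of all genes) and 20 by limma-voom (12.9%). Mbp, which compacts the myelin sheath, ran from 951 to 2629 CPM in IUO (median 1362), from 1374 to 6372 in PNO (median 5502) and from 687 to 5261 in SAL (median 2844). Mal, a raft protein of the sheath, ran from 14.2 to 41.2, from 24.9 to 234 and from 12.9 to 105 CPM in the same order, with an adjusted p of 0.072. Ermn (medians of 3.70 and 15.9 CPM) and Mobp (77.4 and 329 CPM), both proteins of the forming sheath, had adjusted p-values of 0.078 and 0.10. The groups overlapped in all 4 genes, and PNO replicate 5 was the lowest PNO pup in each. The list's summed level was 2668 to 6376 CPM in IUO, 3463 CPM in PNO replicate 5, and 7450 to 16380 CPM in the other PNO pups.

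Markers of other regions varied between the same pups. The PNO pup with the highest myelin sum, replicate 1, also carried hypothalamic and choroid plexus transcripts, and PNO replicates 4 and 6, at 11240 and 11560 CPM of myelin genes, were those with raphe genes. PNO replicate 5, with 28.6 CPM of midbrain genes, had the lowest PNO myelin sum, and IUO replicates 3 and 6, with hypothalamic genes, had myelin sums of 3361 and 3433 CPM. PNO replicates 2 and 3 carried neither the raphe nor the midbrain nor the hypothalamic genes and had myelin sums of 7450 and 12970 CPM, above all 6 IUO pups, beside choroid plexus sums of 150 and 556 CPM. What part the tissue from other regions has in the myelin levels was not tested. Without the 5 pups with midbrain genes the median was -1.44 and 20 of 22 genes were lower at an unadjusted p under 0.05. Without the 4 with hypothalamic genes it was -0.89 and 10 of 22 were lower, against 8.04% and 8.18% of all genes in those fits. Genes of early oligodendrocyte differentiation had a median of -0.41, with 11 of 11 lower and 6 at an unadjusted p under 0.05 (9.14% of all genes), and precursor genes one of -0.14, with 7 of 10 lower and 2 at that p. With the myelin covariate these medians were 0.066 and 0.073. Bcas1, which marks cells about to myelinate, was at 132 ± 29.8 CPM in IUO and 209 ± 61.0 CPM in PNO, and Sirt2 at 324 ± 60.6 and 488 ± 122 CPM.

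Markers of striatal medium spiny neurons lay on the higher side in IUO. All 20 tested had a positive log2 fold change in IUO, and 4 of them had an unadjusted p under 0.05, against 6.14% of all genes higher at that p. Their median was 0.84. After adjustment 0 passed by edgeR, 1 by DESeq2 (2.78% of all genes) and 5 by limma-voom (12.9%). Meis2, a homeobox factor of striatal and olfactory interneuron lineages, ran from 127 to 177 CPM in IUO and from 57.9 to 103 in PNO without overlap (adjusted p = 0.11). Foxp1 had medians of 32.2 and 19.3 CPM and Gng7, a G protein subunit of striatal dopamine signalling, of 320 and 127 CPM. Drd1, the dopamine receptor of the direct pathway, was at 33.4 ± 16 CPM in IUO and 18.5 ± 13.4 CPM in PNO. The summed level was 2435 and 3020 CPM in IUO replicates 1 and 2 and 2071 CPM in PNO replicate 3, and between 484 and 1494 CPM in the other 9 pups. Without the pups with midbrain genes the median was 0.28, and without those with hypothalamic genes 1.16. Cortical layer genes lay closer to 0. The deep-layer list had a median of 0.18, with Fezf2 at 43.5 ± 7.46 and 38.8 ± 10.8 CPM, and its members with the lowest p in the higher direction, Bcl11b (medians of 109 and 52.3 CPM) and Foxp2 (34.7 and 23.1 CPM), are also made by striatal neurons. The 10 glutamatergic markers had a median of 0.0027, and Nrn1, an activity-induced neurite protein, ran from 54.5 to 87.2 CPM in IUO and from 89.7 to 205 in PNO without overlap (adjusted p = 0.13).

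**Figure D4:**
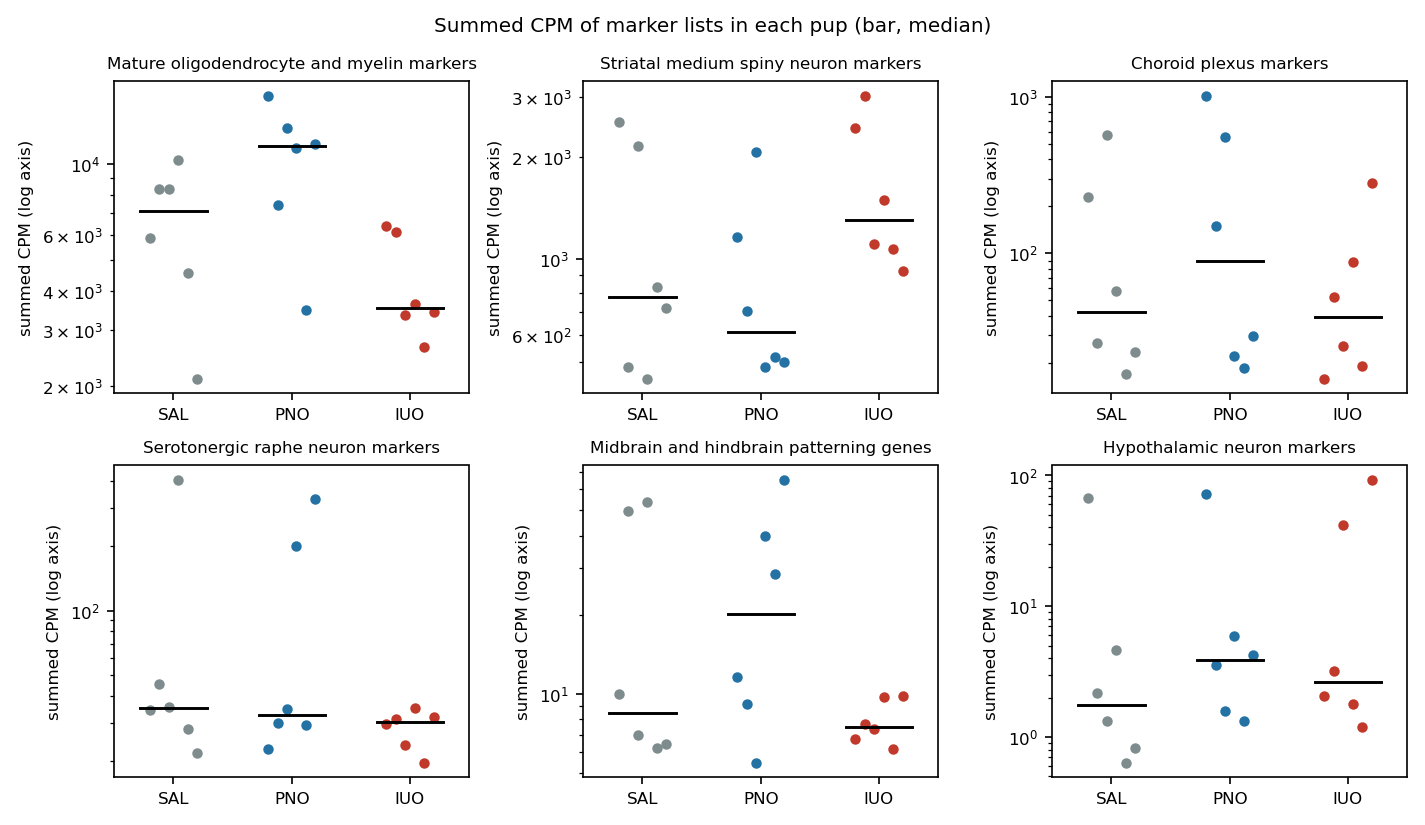
Summed CPM (vertical, log axis) of 6 marker lists in each pup, with a bar at the median of SAL, PNO and IUO. Myelin genes sum to 2668 to 6376 CPM in IUO and to more than that in 5 of 6 PNO pups, and raphe genes are high in PNO replicates 4 and 6 and in 1 SAL pup.

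Of the opioid system itself, the target of the drug, 0 of 10 peptide and receptor genes passed after adjustment by edgeR, 0 by DESeq2 and 1 by limma-voom (12.9% of all genes), Oprd1 (adjusted p = 0.038). Of the 10, 6 were higher and 4 lower in IUO, 1 had an unadjusted p under 0.05 (15.3% of all genes), and the median log2 fold change was 0.05. That median ran from -0.081 to 0.42 over 26 settings. It was negative in 7, the fit without the pups with midbrain genes among them. On mean TPM, which allows levels to be set beside each other across genes, the order in IUO was Penk (164), Ogfr (81.9), Pdyn (31.1), Oprl1 (16.6), Ogfrl1 (16.3), Pnoc (9.0), Pomc (3.09), Oprk1 (3.08), Oprd1 (1.41) and Oprm1 (0.720). Oprl1 and Ogfrl1, and likewise Pomc and Oprk1, were nearly level. Oprm1, the mu receptor, ran from 0.626 to 1.23 CPM in IUO and from 0.294 to 2.33 CPM in PNO, which rests on 13 to 25 expected counts per IUO pup and 6 to 62 per PNO pup. Oprd1 (delta) was at 1.18 ± 0.269 and 0.780 ± 0.478 CPM, with a log2 fold change of 0.58 that was 0.0058 without the pups with midbrain genes, and Oprk1 (kappa) at 4.84 ± 1.85 and 3.51 ± 2.12 CPM. The nociceptin receptor Oprl1 was at 29.1 ± 4.65 and 35.2 ± 8.08 CPM, and its peptide Pnoc ran from 7.41 to 15.3 CPM in IUO and from 12.1 to 19.6 in PNO (log2 fold change -0.51 ± 0.23, unadjusted p = 0.038 by edgeR, adjusted p = 0.30). Penk and Pdyn, the enkephalin and dynorphin precursors, were at 133 ± 98.0 and 89.7 ± 61.8 CPM and at 46.2 ± 17.7 and 33.6 ± 12.1 CPM. Both precursors are abundant in striatal neurons, whose marker sum varied between the same pups. Pomc was at 2.01 ± 0.409 and 3.32 ± 1.05 CPM, and the growth factor receptor Ogfr and its relative Ogfrl1 had log2 fold changes of -0.01 and 0.01. Among 29 genes of opioid signalling and desensitisation, Gnai2, an inhibitory G protein, was at 251 ± 19.2 and 223 ± 13.5 CPM, and Kcnj5, a subunit of the potassium channel that such G proteins open, at 2.76 ± 0.298 and 3.54 ± 0.692 CPM. These were the 2 with an unadjusted p under 0.05 (15.3% of all genes), and the list began with Gnai1 at 90.0 ± 12.5 and 72.0 ± 18.5 CPM.

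Glutamate receptor and postsynaptic genes lay slightly above 0, but not with the myelin covariate, where the medians of the AMPA and kainate and of the postsynaptic lists were -0.0048 and -0.14. Of 18 AMPA and kainate receptor genes, 5 were higher and 1 lower at an unadjusted p under 0.05 (6.14% and 9.14% of all genes), with a median log2 fold change of 0.19. After adjustment 0 passed by edgeR, 0 by DESeq2 and 6 by limma-voom, against 2.78% of all genes by DESeq2 and 12.9% by limma-voom. Grik2, a kainate receptor subunit, was at 83.5 ± 13 CPM in IUO and 63.2 ± 9.49 CPM in PNO, and Cacng4, an AMPA receptor auxiliary subunit, at 163 ± 12.5 and 138 ± 14.4 CPM. Gria4, the subunit enriched in fast-spiking interneurons, was the one on the lower side, at 93.1 ± 9.55 and 121 ± 20.3 CPM, while Gria1 was at 104 ± 20.3 and 79.8 ± 33.5 CPM. Of 27 postsynaptic scaffold and adhesion genes 22 were higher, with a median of 0.18, but 2 had an unadjusted p under 0.05 (15.3% of all genes), the adhesion protein Cntn6 (37.6 ± 9.32 and 29.1 ± 6.99 CPM) among them. Dlg1 was at 63.3 ± 5.64 and 69.4 ± 5.32 CPM. The 14 NMDA and metabotropic receptor genes had a median of 0.05 with 1 at that p. Among 22 dopamine, serotonin and adrenergic receptor genes the median was 0.28 and 1 had an unadjusted p under 0.05 (15.3% of all genes), Htr5b, with 0.322 to 1.05 CPM in IUO and 0.419 to 8.47 CPM in PNO. Its 3 highest PNO pups were replicates 4, 5 and 6, those with midbrain genes, and its log2 fold change of -2.59 was -1.48 without the pups with midbrain genes.

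Genes of energy metabolism and of proliferation differed by small amounts, with most members of a list on 1 side. All 29 nuclear oxidative phosphorylation genes had a negative log2 fold change in IUO, 12 with an unadjusted p under 0.05 (9.14% of all genes), and their median was -0.20. After adjustment 0 passed by edgeR, 3 by DESeq2 (2.78% of all genes) and 15 by limma-voom (12.9%). With the myelin covariate 20 of 29 were lower, 0 at that unadjusted p by edgeR and 0 after adjustment, and the median was -0.050. Cycs, the electron carrier cytochrome c, was at 33.7 ± 5.88 CPM in IUO and 46.4 ± 8.31 CPM in PNO, Ndufv2 of complex I at 134 ± 11.7 and 169 ± 22.6 CPM, and Ndufa1 at 45.8 ± 5.91 and 58.5 ± 15.7 CPM. The 12 mitochondrially encoded genes had a median of -0.18, which was 0.19 with the myelin covariate, and 0 with an unadjusted p under 0.05 by edgeR. The sign held for 29 of 29 nuclear genes without the pups with midbrain genes and 28 of 29 without those with hypothalamic genes. Of 23 cell cycle genes 20 were higher in IUO, 5 at an unadjusted p under 0.05 (6.14% of all genes), with a median of 0.25, which was 0.076 with the striatal covariate. Mcm6, part of the replicative helicase, ran from 21.3 to 24.7 CPM in IUO and from 15.4 to 19.4 in PNO without overlap (adjusted p = 0.14). Its partner Mcm2 was at 11 ± 1.08 and 8.74 ± 0.876 CPM, the nucleotide-making Rrm2 at 1.80 ± 0.658 and 0.943 ± 0.394 CPM, and the proliferation marker Mki67 at 19.0 ± 3.92 and 15.3 ± 2.79 CPM.

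**Figure D5:**
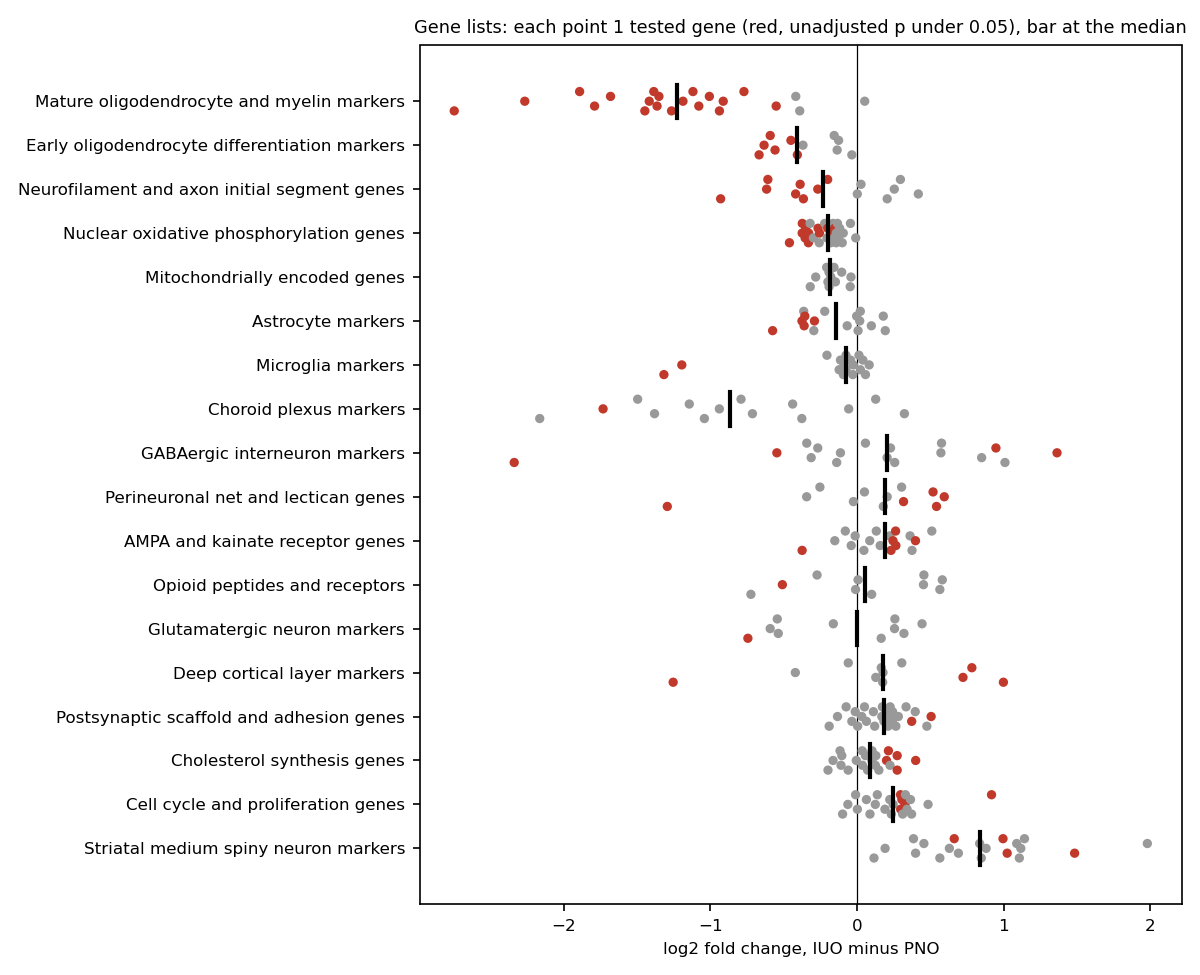
Log2 fold change (IUO minus PNO, horizontal) of each tested member of 18 gene lists (vertical), with red points for an unadjusted p under 0.05 and a bar at the list's median. Myelin markers centre at -1.23 and striatal markers at 0.84, while most lists centre within 0.25 of 0, and microglial markers lie near 0 apart from Selplg and Tmem119.

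Among astrocyte markers, 5 of 16 were lower in IUO at an unadjusted p under 0.05 (9.14% of all genes) and 0 higher. The median was -0.14, and 0.0055 without PNO replicate 1. The calcium-binding protein S100b was at 279 ± 45.3 CPM in IUO and 416 ± 82.8 CPM in PNO, the lipid enzyme Acsbg1 at 157 ± 15.8 and 201 ± 21.3 CPM, and the intermediate filament Gfap at 266 ± 26.1 and 340 ± 30.8 CPM. S100b is also made by oligodendrocytes. Of 16 glucocorticoid and stress-axis genes 3 were lower and 0 higher at that p, with a median of -0.02. They included Hsd11b1 above and Tsc22d3, a glucocorticoid-induced transcription regulator, at 45.8 to 59.8 CPM in IUO and 60.0 to 77.8 CPM in PNO without overlap (adjusted p = 0.095). The glucocorticoid receptor Nr3c1 was at 63.6 ± 8.06 and 68.4 ± 10.6 CPM. Hspd1, a mitochondrial chaperone, was at 222 ± 12.3 and 256 ± 17.9 CPM, within a heat shock list whose median was -0.09 and whose first gene, Hspa1a, was at 0.554 CPM in IUO and 1.21 CPM in PNO on average.

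Immediate-early genes had a median of 0.12, which was -0.12 without IUO replicate 1 and -0.014 without PNO replicate 1. It was also negative with the myelin or the midbrain covariate and without the 5 pups with midbrain genes. Its lowest value in any setting was -0.21. Of the 20 genes, 1 was higher and 1 lower at an unadjusted p under 0.05 (6.14% and 9.14% of all genes). These were Egr3 (33.4 ± 9.28 CPM in IUO and 21.7 ± 6.40 CPM in PNO) and Nr4a2 (22.8 ± 13 and 54.1 ± 21.7 CPM), and Fos was at 21.9 ± 8.89 and 19.3 ± 6.93 CPM. Nr4a2 is also a marker of midbrain dopamine neurons and of deep cortical cells. Cholesterol synthesis genes, of interest beside Scarb1, had a median of 0.09 with 5 of 22 higher at that p (6.14% of all genes), led by Hsd17b7 (31.3 ± 4.33 and 23.7 ± 3.38 CPM), while Hmgcs1 was at 821 ± 117 and 800.3 ± 40.9 CPM. Relatives of Mgat4c among 16 N-glycan branching genes included Mgat4b (132 ± 11.3 and 108 ± 10.4 CPM, no overlap), the sialyltransferase St3gal4 (38.1 ± 3.10 and 45.2 ± 4.63 CPM) and Mgat1 (53.3 ± 2.76 and 57.1 ± 6.47 CPM), with 3 higher and 2 lower at an unadjusted p under 0.05 (6.14% and 9.14% of all genes). Relatives of Cdc42ep2 among 18 genes of Cdc42 and its relatives included Cdc42ep1 (9.68 ± 1.04 and 14.8 ± 3.93 CPM) and Rhog (23.9 ± 3.60 and 35.5 ± 9.04 CPM), with 2 higher and 5 lower at that p, and Cdc42 itself was at 226 ± 5.94 and 216 ± 9.69 CPM.

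The lists of vascular and border cells described the sampled tissue. Choroid plexus genes had a median of -0.86 with 1 of 14 at an unadjusted p under 0.05 (15.3% of all genes), and the median was 0.071 without PNO replicate 1. The sum ran from 15.7 to 281 CPM in IUO and from 18.4 to 1020 CPM in PNO. Ttr, the transthyretin of the plexus, had medians of 23.9 and 69.9 CPM, and Sostdc1 of 0.499 and 2.27 CPM. Red blood cell genes were higher in IUO in 4 of 4, with Hbb at 821 ± 652 and 432 ± 231 CPM and Alas2, the first enzyme of red-cell heme synthesis, at 26.8 ± 20.8 and 11.2 ± 5.74 CPM. Their sum was 2196 CPM in IUO replicate 6 and 300.1 to 865 CPM in the other IUO pups, beside 126 to 772 CPM in PNO. The median log2 fold change was 0.95, and 0.39 without IUO replicate 6. Endothelial, mural, ependymal and meningeal lists had medians of 0.02, -0.11, -0.06 and 0.21, with at most 3 members at that p in each. The meningeal median was negative with the myelin covariate and without the 4 pups with hypothalamic genes, down to -0.32. The ependymal median changed sign in 11 of 26 settings and ran from -0.28 to 1.24, and the endothelial one changed sign in 6. The growth factor, circadian clock, interferon, TLR4 and upper-layer lists had medians of 0.05, 0.03, -0.12, -0.03 and 0.19, with at most 2 members at that p in each.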

How the data were processed

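PFC RNA of 18 pups was sequenced, and group and replicate number were read from the sample titles. The authors deposited, per pup, an expected count for each of 32623 genes, an estimate that divides reads matching several genes. TPM, which the authors deposited beside it, corrects for gene length and sums alike in every pup, and served here only to order levels between genes. The FPKM values deposited by the authors were not used. The aligner, quantifier, build and annotation are not given in the sources used here. Names are those of the files, and gene neighbours come from RefSeq (GRCr8).

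Rounded expected counts went into a single 3-group model with 15 residual degrees of freedom. R 4.3.3 and edgeR 4.0.16 were used (TMM factors, the filterByExpr filter, glmQLFit, then two-sided glmQLFTest). Benjamini-Hochberg adjustment covered 15703 genes. The SE is the log2 fold change divided by the root of the F statistic. Alternatives were RLE factors, library totals only, other filters, quality-weighted voom from limma 3.58.1, DESeq2 1.42.0, 12 pups only, a replicate block, covariates, and left-out pups. Fits were tested on simulated data. Tables used Python 3.11.15, numpy 2.4.6, pandas 2.3.3, scipy 1.17.1 and matplotlib 3.10.9.

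The comparison and the 40 lists (700 entries, 675 matched by symbol) were chosen with earlier results of these data known, and 6 lists of other brain regions after the values were seen. Lists are described by counts and medians, to be read against those of all genes, with no test of the list. Named genes are those with an adjusted p under 0.05, the 8 higher and 8 lower symbol-named genes with the smallest p at 1.5-fold or more, the first and the 3 smallest-p genes of a list or fewer, and all opioid peptides and receptors. Some genes that meet this rule are not reported here. Regional markers were chosen after their values were seen.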

Additional observations from a re-analysis of the deposited data

Results flagged for a closer look

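Across 106 named genes, each IUO and PNO group of 6 pups was checked for a highest or lowest pup standing apart from its nearest neighbour by more than Dixon's 95% critical value (a gap as a part of the group's range, which chance meets in about 1 of 20 groups). It was met in 11 of 212 gene groups, which is about the number that chance gives. They are given here as log2 CPM of the pup and of the nearest pup. In IUO replicate 2, Mettl7a at 3.84 (nearest 3.57), Oprm1 at 0.40 (nearest -0.15) and Oprk1 at 3.11 (nearest 2.23) were high, and Acan at 1.78 (nearest 2.31) was low. Mybpc2 was low in IUO replicate 6 at -0.51 (nearest 0.63) and Ogfr low in IUO replicate 1 at 6.44 (nearest 6.67). In PNO replicate 5, Sirt2 at 8.11 (nearest 8.84) and Cdc42ep1 at 2.97 (nearest 3.86) were low. In PNO replicate 1, Sostdc1 at 3.02 (nearest 1.38) and Oprk1 at 2.97 (nearest 1.73) were high, and Nr4a2 was low in PNO replicate 3 at 4.13 (nearest 5.54). Among measures of the libraries, the share of counts in haemoglobin genes was 0.754% in IUO replicate 6, with 0.284% in the nearest IUO pup.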

How the results depend on the processing

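The counts of genes passing at 1.5-fold after adjustment, and at any fold, were 7 and 10. They were 13 and 19 with library totals only, 172 and 436 with DESeq2, 703 and 2028 with limma-voom, 50 and 72 with only the 12 pups, 2 and 3 with a myelin marker covariate, and 0 and 1 with a striatal one. Of the settings added after the data were seen, a midbrain gene covariate gave 2 and 3, leaving out the 5 pups with midbrain genes 2 and 2, and leaving out the 4 with hypothalamic genes 0 and 0. Requiring 2-fold left 4 genes. Of the 10 genes, 0 were among the 3 with the myelin covariate and 1 among the 1 with the striatal one. The replicate number as a block gave 5 and 6, of which 3 and 4 were shared. The deviations of same-numbered IUO and PNO pups correlated at -0.30 to 0.44, over 0.1 for 3 of 6 numbers, and 2 of 6 IUO pups (replicates 5 and 6) correlated best with their own number. The study's methods name no block, and for that reason the main fit did not use the numbers as pairs. Leaving out 1 pup of the 2 groups gave 0 to 58 and 1 to 95. At an unadjusted p the count of 600 was 1354 with limma-voom, 1119 without a filter on low counts, and 493 to 922 without 1 pup, with 922 without PNO replicate 1. The share higher in IUO, 42.0% of the 600, was 49.3% with library totals only, 64.1% with limma-voom, 62.6% with the myelin covariate and 53.4% with the block. The cause was not tested.

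The median of choroid plexus genes (-0.86) was 0.077 with limma-voom, 0.20 with the myelin covariate and 0.071 without PNO replicate 1. None of the 10 genes turned direction in the settings run. Genes near 0 or tied to a covariate did. Mbp is a member of the myelin list, and Drd1, Penk and Pdyn of the striatal list. Their own levels enter the covariate, so part of their change with it is built in. With the myelin covariate the log2 fold change was -0.030 for Fezf2, 0.028 for Mbp, 0.15 for Bcas1, 0.12 for Sirt2, -0.20 for Cx3cr1, 2.71 for Ttr, -0.18 for Oprm1, -0.064 for Gnai1, -0.028 for Gria1, -0.31 for Fos, 0.034 for Cdc42ep1, 0.072 for Rhog and -0.20 for Ogfrl1. With the striatal covariate it was -0.12 for Drd1, -0.078 for Oprk1, -0.68 for Penk, -0.24 for Pdyn and -0.00882 for Ogfrl1. With the midbrain covariate it was -0.039 for Cx3cr1, -0.17 for Oprm1, -0.13 for Fos and -0.13 for Ogfrl1, and without the 5 pups with midbrain genes -0.31 for Oprm1, -0.015 for Penk and -0.073 for Ogfrl1. It was 0.071 for Ttr with limma-voom and 0.035 for Ogfr with library totals only. Without 1 pup it ran from -0.019 to 0.24 for Cx3cr1, -0.060 to 0.93 for Oprm1, -0.035 to 0.36 for Fos, -0.023 to 0.086 for Hmgcs1, -0.066 to 0.032 for Ogfr and -0.041 to 0.043 for Ogfrl1. Genes under about 1 CPM, such as Oprm1, rest on few counts.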

Other observations

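The locus AABR07001512.1 had the lowest log2 fold change of all tested genes and was singled out after its values were seen. It was between 0 and 0.088 CPM in the 6 IUO pups, at most 1.8 expected counts. In PNO, 5 pups lay between 2.05 and 3.78 CPM and replicate 2 was at 0. In SAL, replicates 1 and 3 were at 0.187 and 0.159 CPM and the other 4 pups between 2.26 and 5.33 CPM. The pattern is one of pups near 0 and pups well above it, with near-0 pups in every group. The adjusted p was 0.057 by edgeR's quasi-likelihood test.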
